A study of Mus musculus with 12 samples.

Results

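Cell cycle and DNA replication genes were followed here as a set of 42 genes, 12 that act in S phase, when DNA is copied, and 30 that act in mitosis, when the copies are separated. The members were taken by gene symbol from the tables of the study, and all 42 were found among the 53801 genes of the count table. Total RNA was sequenced from colon and whole blood of a mouse model of ulcerative colitis (UC), with 12 libraries in 4 groups of 3. The libraries labelled UC came from mice 1, 2 and 4, male C57BL/6 mice aged 8 weeks that drank 1.5% dextran sulfate sodium (DSS) for 7 days and were killed on day 8. The libraries labelled control came from mice 7, 8 and 9, of the same strain, sex and age, which drank plain water over the same time. Colon and blood came from the same 6 mice. DSS is a sulfated polysaccharide that damages the colonic epithelium, and the mice used for sequencing were chosen by their disease activity index.

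The cell cycle is driven by waves of transcription. In late G1 and S phase, E2F factors switch on the genes for the replicative helicase, the sliding clamp and the enzymes that make deoxynucleotides, and in G2 and mitosis the MuvB complex, together with B-Myb and Foxm1, switches on genes for cyclin B, the mitotic kinases, the kinetochore and the spindle. In colon these genes mark the dividing transit-amplifying cells at the base of the crypts, and in blood, where most cells no longer divide, they mark immature red cells and activated lymphocytes. In bulk tissue, fewer cells of a type and less RNA per cell cannot be told apart.

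Total counts per library ranged from 69181049 to 103662306 in colon and from 80867247 to 142536804 in blood, and the members held 47741 to 227453 counts per colon library and 81728 to 137189 per blood library. The lowest count of any member in a library was 85 in colon and 8 in blood. The tissue labels were checked against defining genes, since the labels of each sample name different tissues in different fields. Alas2, a red cell heme synthesis gene, stood at 34034 to 76987 CPM (counts scaled by library size) in libraries taken as blood and 5.75 to 44.3 in those taken as colon, whereas the epithelial keratin Krt8 stood at 3548 to 5179.8 CPM in colon and at most 0.953 in blood. The disease labels did not follow a defining gene of inflammation. S100a8, a calcium-binding protein of neutrophils, had 5370.4, 33.1 and 22.3 normalized counts in the colon libraries labelled UC (mice 1, 2 and 4) and 1888, 75.6 and 13337 in those labelled control (mice 7, 8 and 9). The library of mouse 1 and those of mice 7 and 9, labelled control, were thus the high ones. S100a8 in blood was also highest in mice 1, 7 and 9. The normalized counts of the study list the libraries of both tissues in the order of mice 1, 7, 9, 2, 4 and 8. Whether labels were exchanged was not tested. Groups are kept as labelled, and each comparison is given with and without single mice where that matters.

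The members were first read for short motifs in their promoters, defined as the RefSeq sequence (GRCm38.p6) from 250 bases before to 50 bases after the gene start. A promoter was at hand for 35 of the 42 members and for 27025 genes in all. Both strands were searched for the CHR element bound by MuvB (TTTGAA or TTCGAA), the CCAAT box bound by NF-Y, the E2F element (TTTCCCGC, TTTCGCGC, TTTGCCGC or TTTGGCGC) and the GATA element of red cell factors (AGATAA or TGATAA). The CHR letters were present in 19 of 25 mitosis promoters (76.0%), in 2 of 10 S phase promoters (20.0%; Mcm2 and Mcm7) and in 21.7% of all promoters. The E2F letters were present in 4 of 10 S phase promoters (Mcm3, Mcm5, Mcm6 and Mcm7) and in 1 of 25 mitosis promoters (Cdk1), against 2.6% of all promoters. A CCAAT box stood in 80.0% of the promoters of both classes and in 41.1% of all promoters, and at least 2 of them stood in 14 of 25 mitosis promoters, 5 of 10 S phase promoters and 13.3% of all promoters. GATA letters stood in 2 of 35 members (Top2a and Cenpa) and in 21.0% of all promoters. A match of letters is a description of the sequence and not a measured binding site.

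To show both classes of promoter, 4 mitosis and 2 S phase members are printed 5′ to 3′ in the direction of the gene, as the up to 150 bases before the start that lie outside annotated exons. Capitals mark CHR, CCAAT and E2F letters on either strand and, in Top2a, a single GATA match (AGATAA).
Top2a, chr11:99024190-99024339, - strand: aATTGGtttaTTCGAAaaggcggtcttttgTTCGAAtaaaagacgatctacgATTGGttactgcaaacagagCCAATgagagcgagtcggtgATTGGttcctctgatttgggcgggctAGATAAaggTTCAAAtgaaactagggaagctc
Cdk1, chr10:69352939-69353062, - strand: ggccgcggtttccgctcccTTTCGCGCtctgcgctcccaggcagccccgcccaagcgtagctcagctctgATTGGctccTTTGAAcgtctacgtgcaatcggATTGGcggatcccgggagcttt
Cdc20, chr4:118437353-118437493, - strand: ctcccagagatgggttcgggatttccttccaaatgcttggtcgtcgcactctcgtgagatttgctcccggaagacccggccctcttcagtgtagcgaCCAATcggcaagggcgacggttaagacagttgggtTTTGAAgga
Kif11, chr19:37376232-37376381, + strand: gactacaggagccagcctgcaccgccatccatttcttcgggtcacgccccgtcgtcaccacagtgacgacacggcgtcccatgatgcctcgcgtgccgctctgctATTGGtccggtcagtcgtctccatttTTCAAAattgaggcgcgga
Mcm5, chr8:75109359-75109508, + strand: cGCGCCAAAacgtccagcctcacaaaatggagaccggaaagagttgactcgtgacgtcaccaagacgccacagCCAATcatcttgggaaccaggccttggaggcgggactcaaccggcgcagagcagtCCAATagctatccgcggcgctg
Mcm6, chr1:128359706-128359855, - strand: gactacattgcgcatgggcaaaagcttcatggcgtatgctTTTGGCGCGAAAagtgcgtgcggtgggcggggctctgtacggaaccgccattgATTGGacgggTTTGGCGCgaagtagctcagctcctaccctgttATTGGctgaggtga
Top2a holds 3 CHR and 4 CCAAT matches in this stretch, and Cdk1 holds CHR, CCAAT and E2F letters together. Cdc20 and Kif11 each hold a CHR match within the last bases before the start, with a CCAAT box upstream of it. Mcm5 and Mcm6 hold E2F and CCAAT letters and no CHR match here, and 2 of the 3 E2F matches of Mcm6 overlap.

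In colon the members moved together from library to library, and a single mouse held the highest value of almost every member. Mouse 9, labelled control, was highest for 41 of 42 members (97.6%), against 22.7% of the 22123 colon genes with a mean normalized count of at least 10. The exception was Tyms, which was highest in mouse 2. The lowest value was held by mouse 1 for 21 members and by mouse 7 for 16, against 14.1% and 19.7% of all genes. Values are the normalized counts of the study, each count divided by 1 factor per library, and the tissues were normalized separately.

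**Figure D1:**
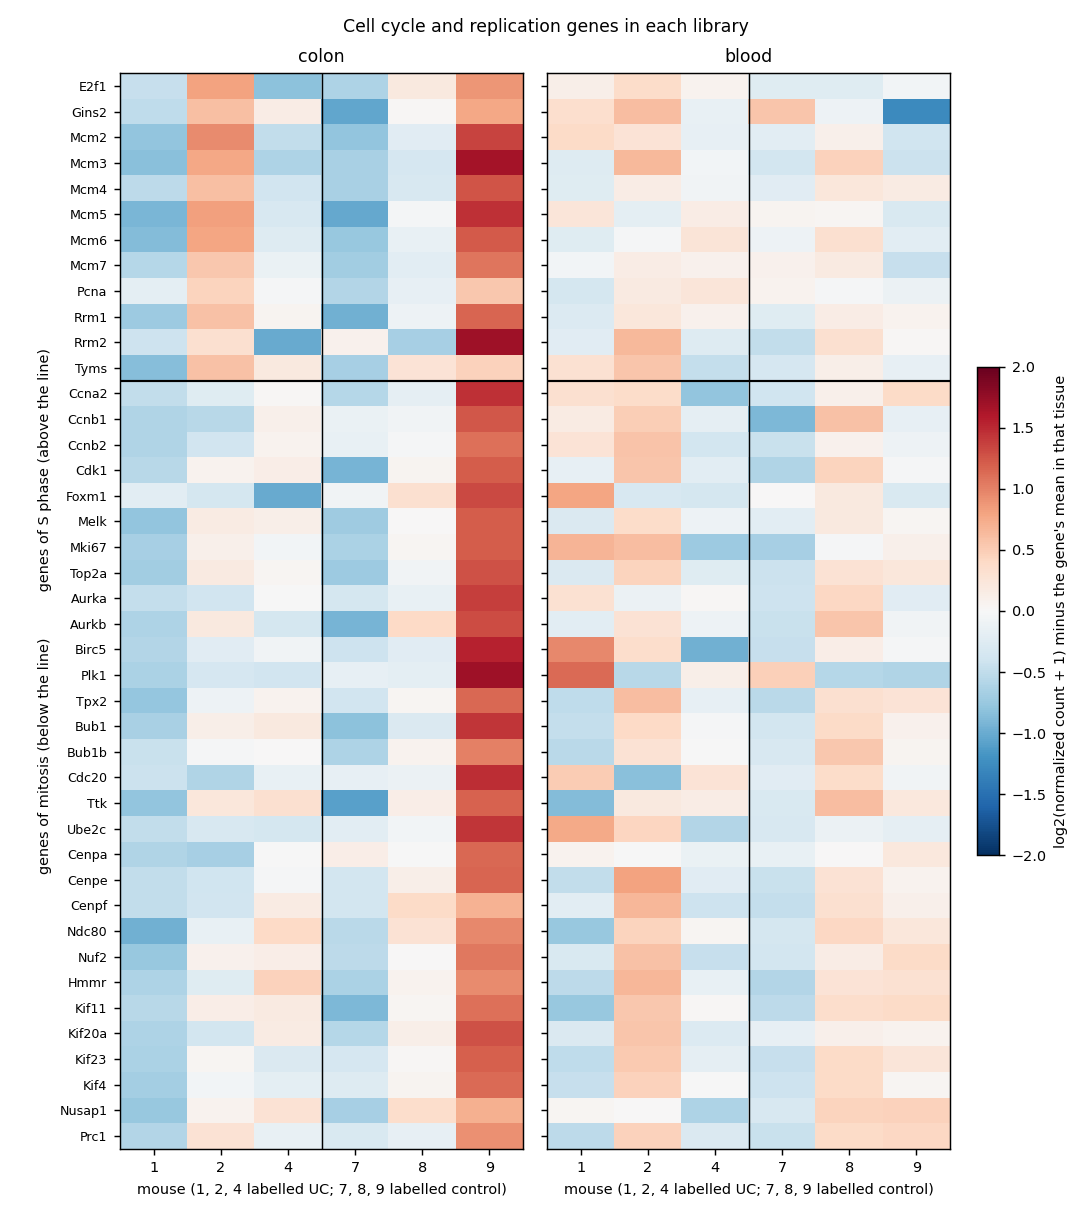
Level of each of the 42 members in each of the 12 libraries, as log2(normalized count + 1) minus the mean of the gene over the 6 libraries of its tissue; columns are mice and rows are members grouped into S phase and mitosis. The colon library of mouse 9 is above the gene mean for all 42 members, and the colon library of mouse 1 for 0 of 42.

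The replicative helicase members, which unwind DNA ahead of the replication fork, had a second high colon library. Mcm2 had 831, 2774 and 1017 normalized counts in the colon of mice 1, 2 and 4 (labelled UC) and 827, 1221 and 3651 in that of mice 7, 8 and 9 (labelled control). Mcm5 had 1149, 3801 and 1726 against 1066, 2113 and 5963. Mcm3, at 791, 2412 and 916 against 899, 1122 and 4465, was among the 3 members with the widest range (2.5 on the log2 scale), as was Mcm5 (2.48). Mice 2 and 9 were high and the other 4 libraries low for each of these subunits, so the labelled groups overlapped. Gins2, a GINS subunit of the same helicase, had 210.3, 455 and 331 normalized counts against 145, 304 and 513. Gins2 shares 67.3% of its exon bases with Gse1, so its counts are uncertain.

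The remaining S phase members make deoxynucleotides, hold the polymerase or regulate transcription. Pcna, the sliding clamp, had 4838, 7537 and 5456 normalized counts in colon libraries labelled UC against 3688, 4956 and 8110.0 in those labelled control, the narrowest range of any member (1.14 on the log2 scale). Rrm2, the small subunit of ribonucleotide reductase, had the widest (2.70), with 675, 1124 and 448 against 964, 572 and 2915. Tyms, thymidylate synthase, had 911, 2489.8 and 1884 against 1045, 2003 and 2287. Rrm2 in mouse 9 stood far above the other 5 libraries, whereas Tyms lay close together in mice 2, 8 and 9. E2f1, the transcription factor of the G1 to S transition, had 119, 289 and 92.4 normalized counts against 107, 189 and 305, with mice 2 and 9 close to each other. The labels overlapped for each of these members.

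Among the mitosis members, Mki67 coats mitotic chromosomes and Top2a untangles them. Mki67 had 9577, 16335 and 14651 normalized counts in the colon libraries labelled UC against 9826, 15552 and 35229 in those labelled control. Top2a had 6836, 12539 and 11369.7 against 6667, 10499 and 26747. Mice 1 and 7 were low, mice 2, 4 and 8 intermediate and mouse 9 high for both genes, across the labels. The cyclin B1 gene Ccnb1 had 959, 995 and 1561 normalized counts against 1335, 1388 and 3455. Cdk1, the kinase that cyclin B activates, had 945, 1451 and 1525 against 729.7, 1442 and 3211. Foxm1, a transcription factor of the mitotic genes, had 443, 401 and 252 against 487, 635 and 1280.4. Foxm1 was higher in every library labelled control than in any labelled UC, while Ccnb1 and Cdk1 overlapped.

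The mitotic kinases and their partners showed the same high library. Plk1, which drives entry into mitosis and spindle assembly, had 564, 693 and 666 normalized counts in the colon libraries labelled UC against 779, 765 and 2822 in those labelled control. Aurkb, the kinase of the chromosomal passenger complex, had 320.1, 560.0 and 383 against 257, 644 and 1207. Birc5, the survivin subunit of that complex, had 625, 802 and 893 against 703, 803 and 2736. Plk1 did not overlap between the labels. Aurkb and Birc5 overlapped.

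At the kinetochore, which ties chromosomes to microtubules, Cenpa is the centromeric histone and Ndc80 a part of the microtubule-binding complex. Cenpa had 586, 561 and 892 normalized counts in the colon of mice labelled UC against 984, 885 and 1989. Ndc80 had 271, 479 and 700.3 against 365, 650.4 and 1035. Cenpf, a kinetochore protein with a narrow range (1.19 on the log2 scale), had 2107, 2291 and 3317 against 2312, 3878 and 4806. Cenpa overlapped only by mouse 4 against mouse 8, and Ndc80 and Cenpf were both lowest in mouse 1 and highest in mouse 9.

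The spindle checkpoint delays anaphase until all chromosomes are attached, and the anaphase-promoting complex then ends mitosis. Bub1b, the checkpoint protein BubR1, had 1255, 1681 and 1729 normalized counts in the colon libraries labelled UC against 1119, 1811 and 3465. Cdc20, the activator of the complex that the checkpoint holds back, had 1065, 949 and 1292 against 1279, 1322 and 4019. Ube2c, the ubiquitin-conjugating enzyme of the complex, had 729, 826 and 807 against 889, 995 and 2783. Ube2c did not overlap between labels and Cdc20 overlapped only by mouse 4 against mouse 7, and in both the mouse 9 library lay far above the rest. Kif11, the motor that pushes spindle poles apart, had 2107, 3378 and 3509.7 against 1648, 3178 and 6608 and overlapped.

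Of the 6 colon libraries, that of mouse 2 stood apart in the order of the classes. As the median log2 difference from the mean of each gene, the S phase members stood at 0.60 and the mitosis members at -0.13 in the colon of mouse 2, a gap of 0.73. In the other 5 colon libraries the gap ran from -0.32 to -0.01. Mouse 2 was the second highest library for 11 of 12 S phase members but for 5 of 30 mitosis members, for which mouse 4 (14 members) and mouse 8 (9 members) were second more often. In mouse 9 both classes were high, at 1.19 for S phase and 1.204 for mitosis, and in mouse 1 both were low, at -0.65 and -0.61. Without Ccna2, Mki67, Top2a, Melk, Foxm1 and E2f1, which act outside a single phase or in transcription, the gap was 0.75 in mouse 2 and -0.32 to 0.05 in the others. No test was made of these medians.

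**Figure D2:**
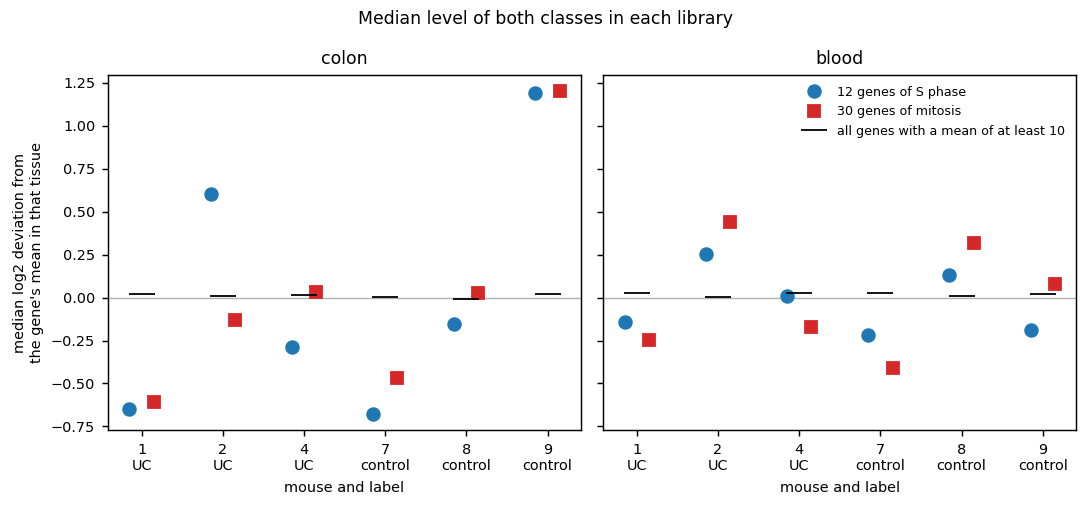
Median over S phase members (12) and over mitosis members (30) of the log2 difference from the mean of each gene, in each colon and blood library (mice on the x axis), with short black lines for the median of all genes. In colon the classes part in mouse 2 (0.60 against -0.13) and are high together in mouse 9 (1.19 and 1.204), and in blood they stay within 0.27 of each other.

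Other genes of the cycle, in lists chosen by function, were read in the same way. In the colon of mouse 9, 123 of 178 were at their highest, among them 60 of 64 genes of the mitotic apparatus and 34 of 46 of licensing and the replication fork. Of 16 inhibitors and arrest genes, 2 were highest and 6 lowest there. Of all colon genes with a mean normalized count of at least 10, 22.7% were highest and 20.1% lowest in mouse 9. Cdkn1a, the p21 inhibitor of cyclin-dependent kinases, had 6727, 9086 and 10434 normalized counts under the UC label and 9067, 20388 and 3675 under the control label, lowest in mouse 9. Ccnd1, the cyclin of early G1, had 4203, 4916 and 1971 against 3761, 1374 and 13559, with the highest value in mouse 9.

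Genes of other cell types also varied over the colon libraries. The summed level of 8 neutrophil genes was 16932, 6817 and 54148 normalized counts in mice 1, 7 and 9. In mice 2, 4 and 8 it was 228, 172 and 313. The sum of 8 epithelial genes was lowest in mouse 9, at 741845 of up to 1116110, and the sum of 8 stem and transit-amplifying cell genes was 28206 there and 20852 to 42462 over all 6. The sum of 8 macrophage genes was 23457, 33996 and 34825 in mice 1, 7 and 9 and 10594 to 12932 in mice 2, 4 and 8. The sum of 10 germinal centre and B cell genes was 5124 in mouse 9 and 4551 in mouse 7. It was 2082 in mouse 1, against a lowest value of 1660.0. The sum of 8 T cell genes was highest in mouse 7, at 1259.5, with 1196 in mouse 9 and 942 in mouse 1. In mice 2, 4 and 8 it was 301 to 525. Tfrc, the transferrin receptor of dividing and red cell precursor cells, had 10805, 13437 and 16443 against 7075, 11697 and 32897. Within the stem and transit-amplifying list the genes differed in order, with Lgr5 lowest in mouse 9 (34.2 against 103 to 794 elsewhere) and Cdca7 second highest there (2404). Olfm4 was near the floor, with 46.8 in mouse 9, 13.3 in mouse 1 and 0 in mice 2, 4, 7 and 8. In blood Olfm4 had 927, 0 and 0 against 157, 16.1 and 247, so it was also found outside the colon. Of 10 granulocyte precursor genes 6 were in the colon table. Their sum was 5159, 3105 and 7647 in mice 1, 7 and 9 and 31.5 to 113 in mice 2, 4 and 8. Mpo was at most at 11.4 in any library and at 0 in mouse 9. The part of these cells in the level of the members was not tested.

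In blood the members varied less in step, and no library held nearly all of the highest values. Mouse 2 was highest for 22 of 42 members (52.4%, against 16.0% of all genes with a mean of at least 10). Mouse 8 was highest for 8 (19.0%, against 14.1%) and second for 17, against 2740 of 16370 genes. Mouse 1 was highest for 8 (19.0%) and lowest for 15 (35.7%), against 30.5% and 28.6% of all genes. The share of highest values in mouse 1 was thus below that of all genes. The 8 members highest in mouse 1 were Mki67, Plk1, Cdc20, Birc5, Ube2c, Mcm2, Mcm5 and Foxm1. Mki67 had 16529, 15747 and 6246 normalized counts in the blood libraries labelled UC (mice 1, 2 and 4) and 6537, 10199 and 11123 in those labelled control (mice 7, 8 and 9). Ube2c had 12865, 10219 and 5064 against 6048, 6995 and 6676. In both genes mice 1 and 2 were high and mouse 4 was lowest, so the labelled UC group spanned the control group.

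Other mitosis members in blood were instead high in mouse 2 or 8. Top2a had 5233, 8725 and 5408 normalized counts against 4781, 7818 and 7542. Bub1b had 7110.1, 12592 and 10322 against 8283, 14968 and 10765. Kif11 had 1171, 2870.3 and 2001 against 1369, 2526 and 2582. Mice 1 and 7 were the low libraries for all 3. Cdk1 had 232, 382 and 223 against 170.0, 353 and 254. Ccnb1 had 274, 345 and 218 against 131, 369 and 220.1. Aurkb had 202, 284 and 218 against 171, 342 and 223. Each of these 3 was highest in mouse 2 or 8 and lowest in mouse 7. Ndc80 had 203, 467 and 352 against 269.5, 457 and 404, lowest in mouse 1.

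A few mitosis members were scarce in blood. Plk1 had 65.3, 19.6 and 31.9 normalized counts in mice 1, 2 and 4 against 41.3, 19.5 and 19.0 in mice 7, 8 and 9. Foxm1 had 112, 51.2 and 49.9 against 64.3, 73.5 and 52.1. Cdc20 had 176, 69.2 and 149.7 against 106, 159.7 and 117. Mouse 1 was highest for all 3, as it was for 30.5% of all blood genes with a mean of at least 10. The other libraries did not follow the labels. Birc5, with the widest range in blood (1.93 on the log2 scale), had 542, 355 and 142 against 199.9, 303 and 271. Cenpa had the narrowest (0.36), with 543, 513 and 470.5 against 466, 521 and 597.

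Most S phase members had a narrower range in blood than in colon, Gins2 excepted. Mcm2 had 747, 697 and 512 normalized counts in mice 1, 2 and 4 against 498, 619 and 435 in mice 7, 8 and 9. Mcm5 had 785, 578 and 735 against 685, 679 and 532. Mcm4 had 1276, 1666 and 1427 against 1279.5, 1756 and 1694, a range of 0.46 on the log2 scale, and Rrm1, the large subunit of ribonucleotide reductase, had a range of 0.50. None of these helicase subunits separated the labels. Pcna had 1008, 1468 and 1529 against 1356, 1271 and 1186. Rrm2 had 1247, 2306 and 1219.9 against 1041, 1821 and 1486. Tyms had 335, 397 and 193 against 213, 292 and 242. Pcna was lowest in mouse 1, whereas Rrm2 and Tyms were highest in mouse 2. Gins2, with 6.62 to 27.1 normalized counts, had the second widest range in blood (1.88). E2f1 had 149.5, 178 and 145 against 117, 116 and 132, and was higher in each library labelled UC than in any labelled control.

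Whether the members differed between mice labelled UC and control was tested in each tissue with edgeR's quasi-likelihood test over all genes. In colon none of the 42 members passed an adjusted p of 0.05 and a log2 fold change beyond 1 (Benjamini-Hochberg over 22238 genes; 0.00450% of all genes passed), and 2 of 42 had an unadjusted p under 0.05, against 1.41% of all genes. DESeq2 also called 0 members, with 5 at an unadjusted p under 0.05, against 2.52% of all genes. The fitted log2 fold change was below 0, that is lower in libraries labelled UC, for 40 of 42 members, with a median of -0.51 against -0.01 over all genes, of which 49.0% were above 0. The median was -0.28 over S phase members and -0.68 over mitosis members.

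The largest fitted differences in colon were in mitosis members. Plk1 had a log2 fold change of -1.19 (SE 0.535) and Foxm1 of -1.14 (SE 0.429). Cdc20 was at -1.01 (SE 0.470). By edgeR the unadjusted p was 0.0353 for Foxm1 and 0.0441 for Cenpa, which had a log2 fold change of -0.93, and the lowest adjusted p of any member was 0.9999. With CPM divided by edgeR's TMM factors of the colon fit, 5 of 42 members had no overlap between the labels (Foxm1, Cenpa, Plk1, Ube2c and Cdc20). All 5 were lower in the libraries labelled UC, against 2.41% of all genes in that direction, 2.99% in the other and 5.41% in either. Pcna at 0.08 and Gins2 at 0.04 were the members with a fitted value above 0, joined by Tyms with library size alone.

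The direction of these values rested on mouse 9. Without it the median over members was 0.08 (0.44 for S phase and -0.06 for mitosis), 24 of 42 members were above 0, 22 had the other sign, and 0 of 42 had an unadjusted p under 0.05 by edgeR. Foxm1 was then at -0.64, Cenpa at -0.48, Plk1 at -0.29, Ube2c at -0.28 and Cdc20 at -0.26, and Mcm2 stood at 0.57. Without mouse 7 the median was -0.86 and 11 members had an unadjusted p under 0.05 by edgeR (1.2% of all genes in that fit), and without mouse 2 the S phase median was -0.85. Of the genes in the other lists, 59 of 64 of the mitotic apparatus (median -0.50) and 33 of 46 of licensing and the fork (median -0.16) were below 0 with all mice, and none was called. The 8 neutrophil genes were all below 0 as well (median -1.85), as were the 8 macrophage (-0.79), the 8 epithelial (-0.21) and the 4 granulocyte precursor genes tested (-1.15). So were 7 of 8 T cell genes (-0.70) and 7 of 8 germinal centre and B cell genes (-0.81), and 3 of 6 red cell precursor genes. The 7 stem and transit-amplifying genes tested were all above 0, with a median of 0.53. The part of these cells in the members' values was not tested.

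**Figure D3:**
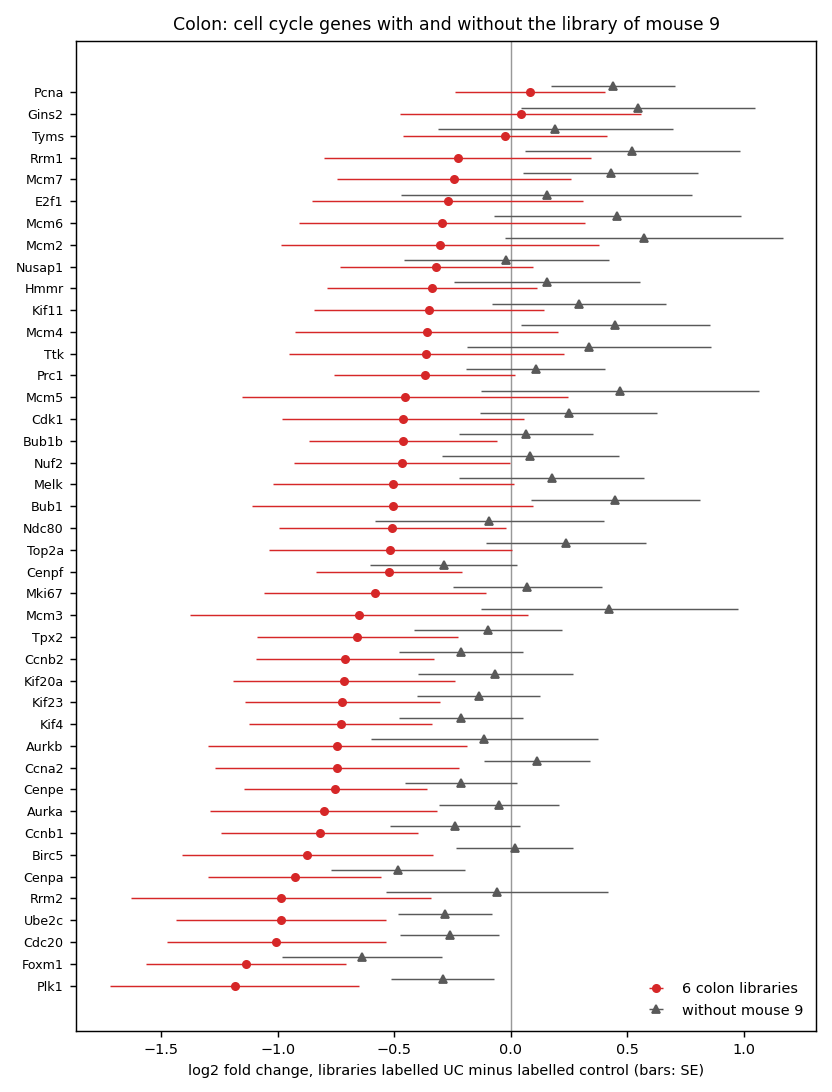
Fitted log2 fold change in colon, libraries labelled UC minus control, for each member with all 6 mice (circles) and without mouse 9 (triangles), with bars for the SE. With all mice 40 of 42 points lie below 0, and without mouse 9 the S phase median is 0.44 and the mitosis median -0.06.

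In blood 0 of 42 members passed the same thresholds by edgeR, against 0% of 16759 genes, and 0 of 42 had an unadjusted p under 0.05, against 1.44%. DESeq2 likewise gave 0 and 0 members. The median log2 fold change was 0.04 over members and over all genes alike, 0.14 over S phase and 0.0029 over mitosis members, and 26 of 42 members were above 0, against 54.2% of all genes. Plk1 (0.54, SE 0.612), Ube2c (0.51, SE 0.341) and Mki67 (0.46, SE 0.400) had the highest fitted values. Nusap1 (-0.40, SE 0.325), which bundles spindle microtubules, the checkpoint kinase gene Ttk (-0.32, SE 0.387) and the midzone protein gene Prc1 (-0.22, SE 0.346) had the lowest. E2f1 alone had no overlap between labels (0.36, SE 0.256, unadjusted p = 0.193 by edgeR), against 3.03% of all genes higher in libraries labelled UC, 3.48% lower and 6.50% in either direction. These signs depended on scaling, since by library size alone the median was -0.27 over all genes and -0.23 over members, with 11 of 42 above 0. They also depended on single mice. Without mouse 2 the median over members was -0.19, with 16 of 42 above 0. Without mouse 8 it was 0.21, with 36 above 0. Without mouse 1, 15 members had the other sign.

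Whether the label effect differed between colon and blood was asked with an interaction term fitted to the 12 libraries. None of the 42 members passed an adjusted p of 0.05 by edgeR, against 0.00430% of 23258 genes, and 1 of 42 had an unadjusted p under 0.05, against 3.41%. That member was Ube2c, at -1.51 (SE 0.602, unadjusted p = 0.0291, adjusted p = 1 by edgeR). Plk1 was at -1.74 (SE 0.836) and Foxm1 at -1.31 (SE 0.636). Nusap1 at 0.07 and Pcna at 0.0072 were the members above 0. The median was -0.63 over members and -0.06 over all genes, and without mouse 9 it was -0.02 over members. With the mouse as a block, 0 members were called, 0 had an unadjusted p under 0.05, and the median was -0.47.

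The tissues differed far more than the labels did. In the fit over all 12 libraries 21 of 42 members were called between colon and blood, 5 higher in colon, against 37.7% of all genes, and 16 higher in blood, against 20.8% (58.5% in either direction). An unadjusted p under 0.05 was reached by 29 of 42 members, against 72.8% of all genes. The colon libraries were made after ribosomal RNA depletion with Ribo-Zero. The blood libraries were made after depletion of ribosomal and globin RNA with Globin-Zero. RNA was also isolated with different kits, so kit and tissue cannot be told apart. A signal recognition particle RNA (7SL) took 35.9% to 65.4% of blood counts and 4.90% to 6.50% of colon counts. The scale between the tissues therefore mattered, and the median of all genes was 0.46 on the log2 scale with TMM factors and 2.57 with library size alone. Relative to that median, members stood at -1.11, S phase members at -0.51 and mitosis members at -1.28 with TMM, and at -1.05, -0.42 and -1.25 with library size alone.

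Nusap1, Ube2c and Bub1b were far more abundant in blood. CPM of members from here on were also divided by the TMM factors fitted over all 12 libraries. The factors ran from 0.3475 to 0.7213 in blood and from 1.913 to 2.32 in colon. Nusap1 (2:119618298-119651244, plus strand, GRCm38) had 552, 520.4, 348, 439, 712 and 732 CPM in the blood of mice 1, 2, 4, 7, 8 and 9, and 4.87, 8.57, 9.94, 5.37, 10.7 and 13.5 in their colon. The log2 difference, colon minus blood, was -5.96 (SE 0.335, adjusted p = 1.05e-07 by edgeR). Ube2c (2:164769898-164778822, plus strand) had 235, 180.2, 92.05, 113, 125 and 121 CPM in blood and 4.04, 4.51, 4.40, 5.07, 5.57 and 15.4 in colon. It was lower in colon by a log2 value of -4.54 (SE 0.346, adjusted p = 7.93e-07 by edgeR). Ube2c shares 22.8% of its exon bases with Tnnc2. Bub1b (2:118598211-118641591, plus strand) had 130.1, 222, 188, 155, 267 and 195 CPM in blood and 6.96, 9.17, 9.43, 6.38, 10.1 and 19.2 in colon, a log2 difference of -4.26 (SE 0.304, adjusted p = 5.03e-07 by edgeR). Every blood library was above every colon library for all 3, and these were also the members still called higher in blood with library size alone.

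The other 13 members called higher in blood did not keep that call with library size alone, and 9 of them then had the other sign, with Mki67, Kif11 and Ndc80 called higher in colon. Rrm2 was at -2.23 (SE 0.403), with 22.8, 40.7, 22.2, 19.5, 32.5 and 27.0 CPM in blood and 3.74, 6.13, 2.44, 5.50, 3.20 and 16.2 in colon. The cytokinesis motor gene Kif23 was at -2.60 (47.1 to 93.0 CPM in blood, 6.91 to 24.5 in colon), the spindle assembly factor Tpx2 at -2.41 (29.9 to 62.9 CPM in blood, 4.54 to 17.3 in colon) and Prc1 at -2.17 (28.9 to 55.2 and 5.99 to 17.0). These libraries did not overlap between tissues. The chromokinesin Kif4 was at -1.84 (19.1 to 34.6 and 4.37 to 15.4), Mcm3 at -1.82 (24.0 to 49.4 and 4.39 to 24.8) and cyclin A2, Ccna2, at -1.55 (36.3 to 81.6 and 13.9 to 54.8), and the last pair overlapped. E2f1 was at -1.31 (SE 0.334), with 2.07 to 3.13 CPM in blood and 0.504 to 1.69 in colon. Ccnb2 (-1.3), Mcm4 (-1.19), Mki67 (-1.11), Ndc80 (-1.02) and Kif11 (-1.01) lay near the threshold. Kif11 and Ndc80 lost the call without mouse 2, 7 or 8, Mki67 without mouse 1 or 8 and Mcm4 without mouse 8.

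The 5 members higher in colon were called under both scalings. Plk1 (7:122159439-122169873, plus strand) had 3.12, 3.78, 3.63, 4.44, 4.28 and 15.6 CPM in colon and 1.19, 0.345, 0.580, 0.773, 0.348 and 0.345 in blood. Its log2 difference was 3.17 (SE 0.446, adjusted p = 7.65e-05 by edgeR). Gins2 (8:120578633-120589304, minus strand) had 1.17, 2.48, 1.80, 0.829, 1.70 and 2.84 CPM in colon and 0.120 to 0.487 in blood, a difference of 2.41 (SE 0.426, adjusted p = 0.000415 by edgeR). Cdc20 (4:118432901-118437352, minus strand) had 5.90, 5.18, 7.04, 7.29, 7.40 and 22.3 CPM in colon and 1.22 to 3.22 in blood, a difference of 1.87 (SE 0.338, adjusted p = 0.000478 by edgeR). Each colon library was above each blood library for these 3 and for Kif20a, a cytokinesis motor gene (1.35, SE 0.302, adjusted p = 0.00203 by edgeR) that shares 29.3% of its exon bases with Cdc23. Kif20a had 5.84, 6.85, 9.84, 6.20, 9.77 and 21.6 CPM in colon and 3.08 to 5.36 in blood. Foxm1 had 2.46, 2.19, 1.38, 2.78, 3.56 and 7.10 CPM in colon and 0.902 to 2.04 in blood, a difference of 1.3 (SE 0.321, adjusted p = 0.00373 by edgeR). Its tissues overlapped, and it lost the call without mouse 9. Among all members, 4 higher in colon and 9 higher in blood had no overlap of libraries, against 34.3% and 19.2% of all genes (53.5% in either direction).

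**Figure D4:**
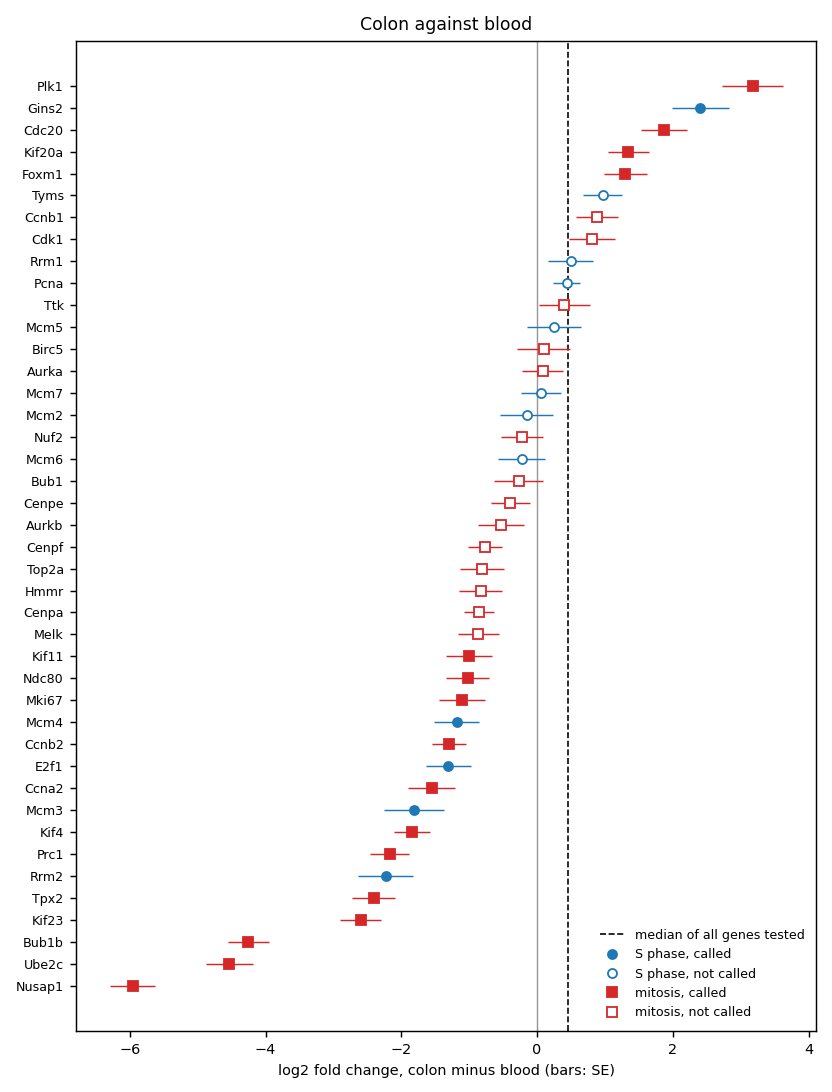
Fitted log2 fold change of each member, colon minus blood, with bars for the SE, filled where called, and a dashed line at the median of all genes (0.46). Values run from -5.96 for Nusap1 to 3.17 for Plk1, with class medians of -0.05 for S phase and -0.82 for mitosis, which are 2.15 and 1.32 with library size alone.

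Class medians between the tissues were read over all 12 libraries with TMM factors. Of 12 S phase members 1 was called higher in colon and 4 higher in blood, with a median of -0.05, and of 30 mitosis members 4 and 12 were called, with a median of -0.82. With library size alone these medians were 2.15 and 1.32. The order of the classes was not the same in every mouse. Within single mice the colon minus blood median was 0.38 for S phase and -1.51 for mitosis in mouse 2, and 1.21 and 0.07 in mouse 9. In mouse 8 it was -0.55 and -1.04. The classes were about level in mouse 1 (-1.11 and -1.18), mouse 4 (-0.63 and -0.59) and mouse 7 (-1.03 and -0.98), the mitosis median being the higher in mice 4 and 7. Of the promoters described above, the CHR letters stood in 2 of 2 promoters of members higher in colon (Plk1 and Cdc20), in 9 of 13 of those higher in blood and in 10 of 20 of those not called. Nusap1 held none of the 4 motifs in its window.

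Levels of different members were compared per kb of exon, from the TMM-scaled CPM. In colon Pcna was highest at 13.3 CPM per kb, followed by Mki67 at 9.28 and Top2a at 7.64, with ranges over 6 libraries of 8.76 to 18.7, 5.28 to 19.4 and 4.21 to 16.5 that overlap each other. The lowest were E2f1 (0.323), Gins2 (0.440) and Ndc80 (0.498). In blood Nusap1 stood at 135.6 CPM per kb (range 85.7 to 180.2), above Ube2c at 55.6 and Bub1b at 45.1, and its range overlapped that of Ube2c (35.4 to 90.5). The lowest in blood were Gins2 (0.0838), Foxm1 (0.212) and Plk1 (0.272). Summed over all members, colon libraries held 328 to 1134 TMM-scaled CPM (558 ± 297, SD, n = 6) and blood libraries 1393 to 2169 (1842 ± 358, SD, n = 6). These sums rest on the scale between the tissues. Before scaling, the members held 47741 to 227453 counts per colon library and 81728 to 137189 per blood library, and these ranges overlapped. Nusap1, Bub1b and Ube2c, grouped after their values were seen, made up 42.5% to 51.1% of the blood sum and 3.97% to 5.30% of the colon sum. Without these 3, the mitosis sum was 220.2 to 787 CPM in colon and 531 to 1011 in blood. The S phase members made up 25.1% to 37.6% of the sum in colon and 8.54% to 14.2% in blood.

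**Figure D5:**
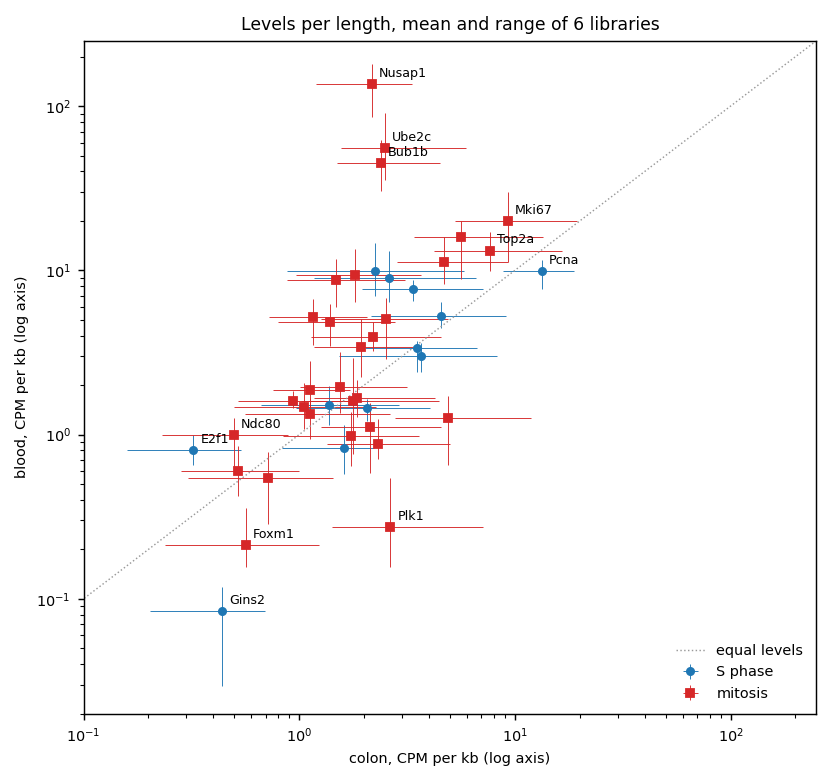
Mean level of each member in TMM-scaled CPM per kb of exon in colon (x, log axis) and blood (y, log axis). Bars give the range over the 6 libraries of each tissue, and a dotted line marks equal levels. Nusap1, Ube2c and Bub1b stand highest in blood at 135.6, 55.6 and 45.1, while Pcna is highest in colon at 13.3.

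The other genes of the cycle differed between tissues in both directions with TMM factors, a scale on which all such values depend. Of 64 genes of the mitotic apparatus 9 were called higher in colon and 24 higher in blood (median -0.39), and of 46 of licensing and the fork 3 and 15 (median -0.43), against a median of 0.46 over all genes, of which 37.7% were called higher in colon and 20.8% higher in blood. Those shares are the background for each count that follows. Pttg1, the securin that restrains separase, was at -5.55 and the kinetochore gene Cenpk at -4.41, whereas Cdca5, the sororin of sister cohesion, was at 3.36 and the abscission gene Cep55 at 2.98. In blood Cdca5 and Cep55 were near the floor. With the factors of the blood fit, Cdca5 had means of 0.132 (UC) and 0.081 CPM (control), and Cep55 of 0.283 and 0.130. Among 19 genes of the E2F, pocket protein and MuvB list 3 were higher in colon and 7 in blood, with the E2F partner Tfdp2 at -6.81, E2f2 at -6.47 and Myb at 2.70. Of 15 G1 cyclins and kinases 6 were higher in colon, Ccnd1 among them (3.19), and 2 in blood, Ccne2 among them (-4.37). Of 15 inhibitors and arrest genes tested 3 were higher in colon, including Cdkn1a (7.53) and Cdkn2b (7.16), and 5 in blood, including Gadd45a (-4.40). Cdkn1a and Cdkn2b were also near the floor in blood. Cdkn1a had means of 0.187 (UC) and 0.103 CPM (control) in the blood fit, and Cdkn2b had 0 to 13.1 normalized counts. Of 10 nucleotide supply genes 3 were higher in each tissue (median 0.69). Of 8 genes of checkpoint kinases and the phosphatases Cdc25b and Cdc25c, 1 was higher in colon and 3 in blood. Cdc25b, which activates Cdk1, was at -6.41. Called higher in blood were all 10 genes of red cell precursors, all 8 of T cells and all 8 of neutrophils. So were 6 of 8 tested genes of germinal centre and B cells (1 higher in colon) and 4 of 6 of granulocyte precursors. Higher in colon were all 8 epithelial genes, 7 of 8 of stem and transit-amplifying cells and 5 of 8 of macrophages, with 1 and 2 of the last lists higher in blood. The part of these cells in the members' differences was not tested.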

How the data were processed

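Total RNA depleted of small RNA was sequenced from colon and whole blood of 3 mice labelled UC and 3 labelled control (12 libraries). As the study's methods give it, the authors trimmed reads with Flexbar, removed ribosomal reads with bbduk, aligned with STAR to GRCm38 and quantified known Ensembl genes with StringTie 1.3.4c in estimate mode, from which its count script gave the deposited counts per gene. Strand use in counting is not given in the sources used here, so overlapping genes and pseudogenes (such as Ccnb1-ps and Pcna-ps2) make counts uncertain, and 12 of 42 members share exon bases with another gene, 3 of them over 20%. The signal tables deposited by the authors hold normalized counts per tissue, each count divided by 1 factor per library (0.791 to 1.21 in colon, 0.664 to 1.31 in blood). 0 columns belonged to other series.

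The gene counts went into edgeR 4.0.16 under R 4.3.3 (TMM, filterByExpr, quasi-likelihood test, Benjamini-Hochberg over all genes tested), each tissue alone for UC against control and over 4 groups for the tissue and interaction contrasts. A call needed an adjusted p of at most 0.05 and, except for the interaction, an absolute log2 fold change over 1. The SE is the log2 fold change divided by the square root of F. Alternatives used DESeq2 1.42.0, limma 3.58.1 (voom), other scalings and filters, single mice left out and the mouse as a block. Library medians used log2(normalized count + 1). CPM of members were divided by TMM factors, whereas CPM of Alas2 and Krt8 used library size alone. Scripts were tested on simulated data. The labels tie colon and blood to the same mouse, and deviations from group means of colon and blood correlated across 23258 genes at 0.188, 0.066, 0.135, 0.0631, 0.133 and 0.0144 in mice 1, 2, 4, 7, 8 and 9. P-values measure the spread between 3 mice per group. Intervals from counting alone were not used.

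Members and lists were chosen with earlier results of these data known. Named with values in every library were 20 members fixed by symbol, members called, the 3 highest and 3 lowest in each comparison, per kb and by range. Genes of the other lists were named after their values were seen.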

Additional observations from a re-analysis of the deposited data

How the results depend on the processing

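Pairing of colon and blood by mouse number as a replicate block left the tissue counts at 5 members higher in colon and 16 higher in blood, the same genes as without it (35.5% and 19.9% of all genes), and turned the sign of Aurka, Mcm7 and Mcm5 (-0.015). In the interaction the block left 0 members called. With library size alone, 29 members were called higher in colon and 3 higher in blood (76.9% and 7.55% of all genes), with class medians of 2.15 for S phase and 1.32 for mitosis, and 20 members had the other sign, 3 of them called so (Mki67 1.06, Kif11 1.12 and Ndc80 1.11). Others were Top2a 1.34, Aurkb 1.66, Cenpa 1.27, Mcm2 2.05 and E2f1 0.83, besides Ccnb2, Ccna2, Bub1, Kif4, Cenpe, Cenpf, Mcm3, Mcm4, Mcm6, Hmmr, Nuf2 and Melk. This follows from the scale, since the median of all genes moved to 2.57. Leaving out single mice gave 4 to 8 members higher in colon (8 without mouse 8, 4 without mouse 9) and 12 to 19 higher in blood, against 35.3% to 37.1% and 19.0% to 20.3% of all genes. Over these settings Mcm2 ran from -0.64 to 0.145 and turned its sign without mouse 1 (0.064), 7 (0.024) or 8. Mcm5 ran from -0.26 to 0.50 and turned without mouse 2 (-0.11) or 9, and Birc5 ran from -0.32 to 0.42 and turned without mouse 4 (-0.14) or 9. Mcm7 turned without mouse 2 or 9, Aurka without mouse 9, and Bub1 and Mcm6 without mouse 8. Counts within the labels, added after the data were seen, were 7 higher in colon and 8 higher in blood among control libraries (33.6% and 18.2% of all genes), where Mcm2 (0.17) and Cenpe turned, and 3 and 18 among UC libraries (32.4% and 19.2%), where Birc5 (-0.56), Mcm5 (-0.054), Aurka and Mcm7 turned. The causes were not tested. RLE scaling gave 6 and 14 (38.6% and 20.0% of all genes), DESeq2 6 and 14 (38.5% and 20.3%) and voom 5 and 16 (37.6% and 21.0%, with Mcm7 turned). In no setting was a member called between UC and control in either tissue, under labels that S100a8 did not follow. Under these labels edgeR called 1 of 22238 genes in colon and 0 of 16759 in blood, and DESeq2 called 6 in each. The study itself described widespread differences between UC and control mice in both tissues. Having 0 members called is thus not particular to the members. The blood values of Gins2 and Plk1, and of Cdca5, Cep55, Cdkn1a and Cdkn2b among the other genes, rest on few counts.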
